A study of Mus musculus with 3 samples.

Results

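The genes of glycolysis and of the transcriptional response to low oxygen were followed here in immune cells of mouse mammary tumors, as a set of 33 genes of the 32285 features counted. The members were chosen by symbol from textbook knowledge of both pathways, and no measured value entered the rule. Earlier results of these data were, however, known when they were chosen. They comprise 2 genes of glucose uptake, 9 of upper and 5 of lower glycolysis, 3 of lactate and pyruvate handling, 3 of oxygen sensing, 3 of mitochondria in hypoxia and 8 other hypoxia-induced genes. All 33 had counts in the files. Live CD45+ cells, the marker of all leukocytes, had been sorted from primary tumors grown in the mammary fat pad of female BALB/c mice (aged 6 to 8 weeks by the sample labels, a slightly wider range than in the methods) and profiled by droplet single-cell RNA sequencing, to learn how blocking p38 changes the immune cells of a tumor. All tumors arose from 4T1-luc, a transplantable BALB/c mammary carcinoma line with a luciferase reporter, of which 200000 cells were implanted, and all were taken on day 14. The vehicle group received DPBS, and the p38i group received the oral p38 inhibitor LY2228820 (ralimetinib) at 30 mg/kg by daily gavage, in both cases for 10 days from day 4. The p38KO group carried p38a-KO-H9, a line in which p38α (Mapk14) had been inactivated with CRISPR-Cas9, and no treatment is listed for it. The inhibitor was systemic and could reach host and tumor cells alike, whereas the knockout was confined to the tumor cells and rests on 1 clone. Each group was 1 library from 3 pooled tumors, so no comparison of groups has a replicate and all such intervals below cover counting error only. In other experiments of the paper, p38i-treated and p38KO tumors grew less than control tumors.

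Glycolysis turns glucose into pyruvate with a small gain of ATP and needs no oxygen. When oxygen falls, prolyl hydroxylases of the Egln family stop marking the hypoxia-inducible factor HIF-1α for destruction, and the stabilized factor induces glucose transporters, most glycolytic enzymes, lactate export and a wider set of genes that limit mitochondrial respiration, store lipid and attract vessels. Neutrophils are known to rely mainly on glycolysis, and myeloid cells of solid tumors often sit in poorly perfused regions.

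The hypoxia-inducible factors bind short sites whose core is ACGTG or GCGTG. Promoter windows of the 250 bases before an annotated start were available from RefSeq (build GRCm38.p6) for 30 of the 33 members, all but Slc2a3, Bnip3l and Ndrg1. Read on both strands, ACGTG was found in 22 of 43 promoters of members (51.2%), belonging to 19 of the 30 genes, and in 16.6% of 32851 promoters of all genes. GCGTG was found in 22 of 43 promoters of members (51.2%) and in 28.2% of all promoters. The palindrome CACGTG, the site of other factors too, holds ACGTG on both strands and was counted as 2 overlapping matches. Windows of 5 members on which the results below turn are printed to show this range, in lower case with ACGTG or its reverse complement CACGT in capitals. Each is given 5′ to 3′ on the strand of the gene. The windows of Pgk1 (chrX:106186850-106187099, plus strand), a lower glycolysis enzyme, and P4ha1 (chr10:59323046-59323295, plus strand), a collagen prolyl hydroxylase, hold 2 separate matches and 1 match:
Pgk1: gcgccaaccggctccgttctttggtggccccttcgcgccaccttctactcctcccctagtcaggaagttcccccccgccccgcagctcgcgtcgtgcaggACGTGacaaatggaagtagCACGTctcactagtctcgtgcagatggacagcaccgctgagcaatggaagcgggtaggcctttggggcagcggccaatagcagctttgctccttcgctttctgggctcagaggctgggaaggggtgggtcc
P4ha1: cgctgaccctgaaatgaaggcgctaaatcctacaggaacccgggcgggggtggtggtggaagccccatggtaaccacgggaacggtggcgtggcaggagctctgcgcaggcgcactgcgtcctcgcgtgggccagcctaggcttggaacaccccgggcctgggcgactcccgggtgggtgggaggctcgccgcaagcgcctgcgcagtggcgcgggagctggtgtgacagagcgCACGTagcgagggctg
The window of Bnip3 (chr7:138909520-138909756, minus strand, 237 bases), a mediator of mitophagy, holds the palindrome:
Bnip3: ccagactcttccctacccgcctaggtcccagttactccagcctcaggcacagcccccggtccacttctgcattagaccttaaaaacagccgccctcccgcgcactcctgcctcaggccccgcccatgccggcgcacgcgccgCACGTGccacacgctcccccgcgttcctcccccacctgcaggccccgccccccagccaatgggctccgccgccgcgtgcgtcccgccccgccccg
The windows of Adm (chr7:110627407-110627656, plus strand), which encodes the vasodilator adrenomedullin, and of the first start of Hilpda (chr6:29272238-29272487, plus strand), which encodes a lipid droplet protein that inhibits lipolysis, hold no ACGTG, and that of Adm holds GCGTG on the reverse strand 2 times:
Adm: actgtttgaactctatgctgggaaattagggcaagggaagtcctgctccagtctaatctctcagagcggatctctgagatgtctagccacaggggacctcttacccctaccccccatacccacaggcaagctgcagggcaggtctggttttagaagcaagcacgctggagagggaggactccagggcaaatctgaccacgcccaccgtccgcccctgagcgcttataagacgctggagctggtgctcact
Hilpda: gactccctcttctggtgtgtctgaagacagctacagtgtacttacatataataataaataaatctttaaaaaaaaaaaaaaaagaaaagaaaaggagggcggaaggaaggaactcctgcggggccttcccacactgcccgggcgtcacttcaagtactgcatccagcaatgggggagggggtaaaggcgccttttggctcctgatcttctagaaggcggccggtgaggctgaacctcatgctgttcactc
A further start of Hilpda is annotated downstream, and the window before it holds 1 match, shown with its surrounding bases (chr6:29272571-29272600, plus strand):
Hilpda, before its second start: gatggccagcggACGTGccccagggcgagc
A match describes these letters only and says nothing of binding in these cells.

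The files held 16143 cell barcodes, of which 12472 passed the cell filter of the study (at least 1500 UMIs, 300 genes and at most 20% mitochondrial counts), with 20795195 to 24374173 UMIs in a library. A UMI is the random tag that marks 1 captured transcript. Cells were gated on raw counts of genes outside the set: Csf3r for neutrophils, divided by the chemokine receptor Cxcr2, which mature neutrophils carry, Ly6c2 or Fn1 for monocytes, C1qa for macrophages, Cd3e for T cells, Ncr1 for NK cells and Flt3 for dendritic cells (DCs), with most gating genes of the other gates absent. In the vehicle, p38i and p38KO libraries these gates held 1158, 1436 and 900 Cxcr2+ neutrophils, 425, 492 and 257 Cxcr2- neutrophils, 252, 490 and 165 monocytes, 117, 136 and 343 macrophages, 473, 603 and 414 T cells, 106, 111 and 106 NK cells, and 41, 73 and 54 DCs. The remaining 1248, 1452 and 1620 cells fell in no gate. The summed markers of monocytes, macrophages, T cells, NK cells and DCs were highest in the gate of that name in all 3 libraries, and neutrophil markers were highest in both neutrophil gates. These sums include the gating genes themselves, so the gates fixed this order in part. No barcode occurred in all 3 libraries, and each pair shared 5 to 9 of them. Mast cell and basophil markers summed to at most 53.2 CPM in any gate of the vehicle and p38i libraries and to 1904 CPM in NK cells, 308.6 in T cells, 226.4 in Cxcr2- neutrophils and 193.3 in macrophages of the p38KO library. The median mitochondrial share of a cell was 0.671%, 0.968% and 2.10% in the vehicle, p38i and p38KO libraries. All values in 3s below keep this order of libraries, and levels are CPM, counts per 1000000 UMIs of the gate. A count of 3′ ends does not scale with transcript length, but capture and mapping can still differ between genes. Levels of different genes are therefore set side by side only roughly.

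The members were expressed most strongly in neutrophils without Cxcr2 and in monocytes, and least in NK cells and DCs. Together they took 2.76%, 2.45% and 2.37% of the UMIs of Cxcr2- neutrophils, 2.16%, 1.98% and 2.02% of monocytes, 1.69%, 1.60% and 1.44% of Cxcr2+ neutrophils, 1.33%, 1.34% and 1.00% of macrophages and 0.645%, 0.739% and 0.444% of NK cells. In all 3 libraries 17 members were highest in Cxcr2- neutrophils, 8 in monocytes (Gpi1, Gapdh, Pgk1, Pkm, Egln1, Vegfa, Ndrg1 and Mxi1) and 2 in Cxcr2+ neutrophils (Pfkfb4 and Slc16a3). The other 6 (Slc2a3, Hk1, Eno1, Ankrd37, Adm and Ddit4) changed their leading gate between libraries, always among these 3 gates. No member was highest in macrophages, T cells, NK cells or DCs of any library. The leading gate was not counted over all genes.

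**Figure D1:**
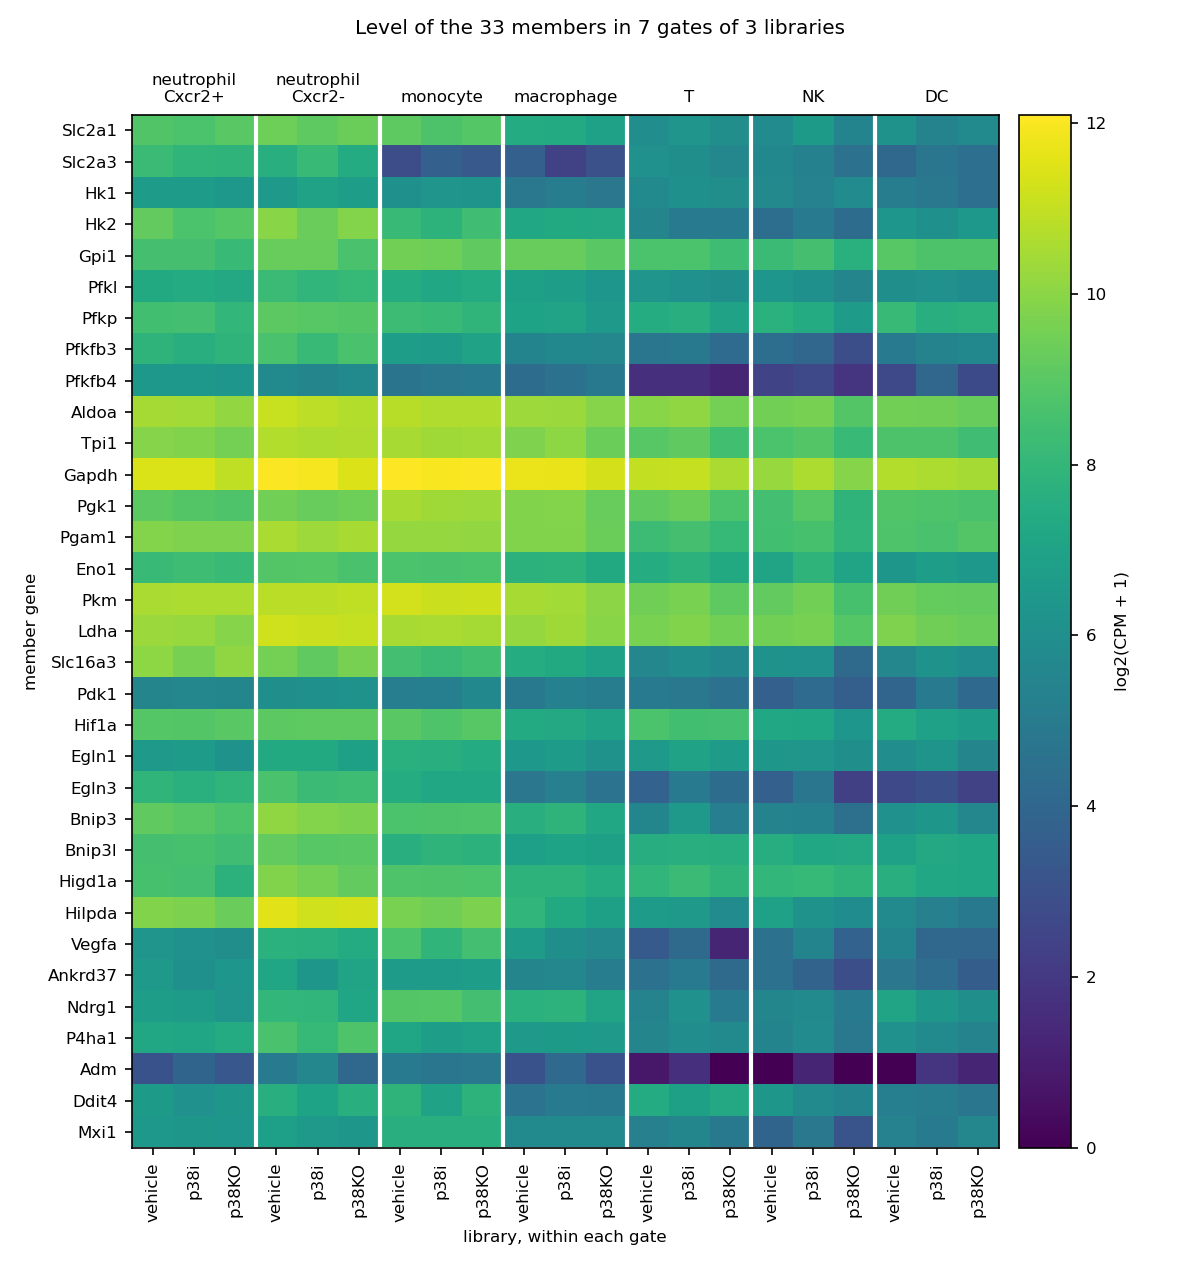
Level of the 33 members (rows, in the order of the pathway) in the 7 gates of the vehicle, p38i and p38KO libraries (columns), as log2(CPM + 1), where the colour runs from dark (0) to yellow (12). The columns of Cxcr2- neutrophils and monocytes are brightest for most members, Gapdh is the brightest row, and Adm and Pfkfb4 are near 0 in T and NK cells.

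Within glucose uptake, the transporters parted by cell type. Slc2a1 (GLUT1), the common transporter induced by hypoxia, stood at 680.5, 555 and 659.9 CPM in Cxcr2- neutrophils, 554, 417 and 483 in monocytes and 174, 169.6 and 121 in macrophages. Slc2a3 (GLUT3), a transporter of high affinity, stood at 306, 242 and 229 CPM in Cxcr2+ neutrophils but at 6.30, 12.3 and 9.55 in monocytes and 12.3, 4.08 and 6.94 in macrophages, so neutrophils held both transporters and mononuclear phagocytes nearly only the first.

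Among the enzymes that prime glucose, Hk2, the inducible hexokinase, reached 986, 637 and 915 CPM in Cxcr2- neutrophils against 291, 223 and 329.5 in monocytes and 44.1, 31.1 and 30.0 in T cells. Hk1, the housekeeping form, stood at 92.5, 122 and 109.7 CPM in Cxcr2- neutrophils, 66.2, 77.1 and 74.8 in monocytes and 53.8, 66.2 and 62.3 in T cells, a far narrower range. Pfkfb3, whose product makes the allosteric activator of phosphofructokinase, stood at 397, 296 and 399.8 CPM in Cxcr2- neutrophils and 109.8, 101 and 123 in monocytes. Its relative Pfkfb4 had the opposite order within neutrophils, at 87.5, 86.6 and 79.9 CPM in Cxcr2+ and 51.7, 45.0 and 54.8 in Cxcr2- cells.

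Of the lower pathway, Gapdh and Pkm had high counts, and Eno1 and Pgk1 had fewer. Reads of Eno1 may have been split with its near-identical copy Eno1b. Gapdh, which oxidizes glyceraldehyde 3-phosphate, stood at 4379, 4003 and 4129 CPM in monocytes and 4126, 3908 and 2838 in Cxcr2- neutrophils. Pkm, the pyruvate kinase, stood at 2498, 2273 and 2302 CPM in monocytes and 1866, 1858 and 1932 in Cxcr2- neutrophils. Pgk1, which makes the first ATP of the pathway, was highest in monocytes, at 1456, 1327 and 1295 CPM against 738, 628 and 693 in Cxcr2- neutrophils. Ldha, which reduces pyruvate to lactate, was highest in Cxcr2- neutrophils, at 2403, 2208 and 2095 CPM against 1464, 1489 and 1437 in monocytes. Slc16a3 (MCT4), the exporter of that lactate, was highest in Cxcr2+ neutrophils, at 1044, 778 and 1101 CPM, with 360.1, 303 and 343 in monocytes.

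Hif1a, which encodes HIF-1α, was of like level in neutrophils, monocytes and T cells. It stood at 535, 553 and 552 CPM in Cxcr2- neutrophils, 485, 468 and 516 in Cxcr2+ neutrophils, 505, 432 and 495 in monocytes and 406, 344 and 355 in T cells, and was lower in macrophages (169, 159 and 126). Egln3, an oxygen sensor that is itself induced by hypoxia, ran from 388, 307 and 318 CPM in Cxcr2- neutrophils to 26.5, 38.1 and 23.1 in macrophages.

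Hilpda spanned a wide range between gates. Its level was 2964, 2390.1 and 2590.0 CPM in Cxcr2- neutrophils, 896, 849.9 and 654 in Cxcr2+ neutrophils, 812, 721 and 848 in monocytes, 247, 164 and 115 in macrophages and 52.4, 37.6 and 28.9 in DCs. After each cell was thinned to 1500 UMIs, Hilpda was detected in 67.3%, 63.4% and 53.3% of Cxcr2- neutrophils, 28.6%, 35.1% and 21.8% of Cxcr2+ neutrophils and 42.9%, 42.2% and 40.6% of monocytes. The shares in T cells were 11.6%, 7.63% and 5.80% and in NK cells 9.43%, 8.11% and 3.77%, below those of neutrophils and monocytes. Free RNA can give UMIs to any cell, and its part in these shares was not tested. The share in macrophages, 17.1%, 10.3% and 11.95%, lay close to that of T cells at this depth, and unthinned it was 49.6%, 41.2% and 29.4% of macrophages against 30.7%, 18.7% and 16.4% of T cells. Vegfa, the main angiogenic growth factor, had its highest level in monocytes, at 407, 244 and 361 CPM, with 211, 203 and 175 in Cxcr2- neutrophils and 9.73, 17.1 and 1.38 in T cells. Adm was rare everywhere, at most 46.7 CPM, with at most 6 counts in any library of T cells, NK cells or DCs.

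The gates were then compared inside the libraries with edgeR's quasi-likelihood test, with the 3 libraries standing in as replicates of the difference between gates. All 7 gates were fitted together and shared an estimate of the spread, with 12 residual degrees of freedom. The p-values therefore draw on the spread between 3 libraries of different treatment over all gates, not only over those compared. They were adjusted over 10970 genes by the Benjamini-Hochberg method.

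Every member had a higher level in neutrophils than in T and NK cells, as the mean of both neutrophil gates against the mean of T and NK. A level is a share of the UMIs of a gate and not a count per cell. All 33 members were higher (24.6% of all genes were), none lower (57.7% of all genes were), and this held in all 15 alternative settings. The median member was 1.99 higher on the log2 scale while the median of all genes was -0.94. Over the same genes that shift was -1.27 with total-count scaling and -0.29 with TMM factors from all genes or DESeq2's size factors, and the median of the members was 1.66, 2.66 and 2.67. The largest differences belonged to Adm at 4.90 ± 0.43 (SE, adjusted p = 3.91e-10), Pfkfb4 at 4.84 ± 0.21 (SE, adjusted p = 1.46e-15), Hk2 at 4.82 ± 0.15 (SE, adjusted p = 2.94e-18) and Hilpda at 4.51 ± 0.14 (SE, adjusted p = 3.08e-18). Adm and Pfkfb4 were near the floor in T cells, at mean levels of 0.91 and 1.84 CPM. The value of Adm ran from 4.58 to 8.60 over the alternatives, so its rank is uncertain. The smallest belonged to Ddit4 at 0.68 ± 0.14 (SE, adjusted p = 8.25e-05), Gpi1 at 0.69 ± 0.09 (SE, adjusted p = 5.34e-07) and Egln1 at 0.69 ± 0.10 (SE, adjusted p = 8.49e-07). Ddit4, an inhibitor of mTORC1 induced by several stresses, had a level in T cells (171, 117 and 159 CPM) between those of both neutrophil gates, and Gpi1 and Egln1 are an enzyme and an oxygen sensor that most cells express. Mean levels of Gpi1, Pgk1 and Egln1 in T cells (380, 540 and 104 CPM) also lay above those in Cxcr2+ neutrophils (338, 474 and 88.3). In contrast, all 27 genes listed for the nuclear-encoded respiratory chain were lower in neutrophils, with a median of -1.70. Of the 8 tested genes of pyruvate entry to mitochondria 7 were lower too, but their median of -1.04 lay near the -0.94 of all genes.

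Within neutrophils, the cells without Cxcr2 held more of most members. Of 33 members 21 were higher (13.9% of all genes were), 1 was lower (8.41% of all genes were) and 11 did not pass the test. The median member was 0.57 higher on the log2 scale against 0.13 for all genes, a shift that ran from -0.08 to 0.22 with other scalings. In all 3 libraries 29 members had a ratio above 0 and Pfkfb4 and Slc16a3 a ratio below 0, while Hk1 and Slc2a3 changed sign between libraries. Such signs were not counted over all genes, whose fitted median was above 0 as well with the main scaling. The count of higher members was 10 without the vehicle library, where 663 of 10722 genes were higher. It was 12 higher with 3 lower when the scaling factors came from all genes, against 925 and 1600 of 10970 genes. A fit of these gates alone, with its own estimate of the spread, gave 26 higher and 3 lower, against 1328 and 1239 of 6488 genes. The members called higher in all 15 alternatives were 10: Tpi1, Ldha, Bnip3, Higd1a, Hilpda, Vegfa, Ndrg1, P4ha1, Adm and Ddit4.

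Of the 8 other hypoxia-induced members 6 were higher, with a median of 1.12. Hilpda differed by 1.65 ± 0.17 (SE, adjusted p = 5.28e-07) on the log2 scale. Adm differed by 1.59 ± 0.31 (SE, adjusted p = 0.000564) and Vegfa by 1.41 ± 0.27 (SE, adjusted p = 0.000549). Each was higher in Cxcr2- cells of all 3 libraries, and the levels of Hilpda and Vegfa did not overlap between the neutrophil gates, at 211, 203 and 175 CPM against 79.1, 67.5 and 61.4 for Vegfa. Overlap between these gates was not counted over all genes. P4ha1, which hydroxylates collagen, differed by 1.16 ± 0.18 (SE, adjusted p = 4.66e-05), and Ndrg1, a gene of differentiation and stress response, by 1.09 ± 0.16 (SE, adjusted p = 3.31e-05). Ndrg1 stood at 254, 252 and 139.8 CPM in Cxcr2- and 104, 101 and 78.2 in Cxcr2+ neutrophils. Ankrd37 at 0.47 ± 0.21 (SE, adjusted p = 0.111) and Mxi1, a repressor that opposes Myc, at 0.12 ± 0.18 (SE, adjusted p = 0.694) did not pass.

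All 3 members that act on mitochondria in hypoxia were higher in Cxcr2- neutrophils. Higd1a, which helps the respiratory chain withstand low oxygen, stood at 906, 751 and 586 CPM against 381, 359 and 220.3, a difference of 1.15 ± 0.14 (SE, adjusted p = 5.74e-06). Bnip3 differed by 0.90 ± 0.19 (SE, adjusted p = 0.00108) and its relative Bnip3l by 0.48 ± 0.13 (SE, adjusted p = 0.00714); both tag mitochondria for removal. Of the oxygen sensing members, Egln1 was higher at 0.64 ± 0.13 (SE, adjusted p = 0.000872), Egln3 did not pass at 0.48 ± 0.20 (SE, adjusted p = 0.102), and Hif1a itself lay near the median of all genes at 0.06 ± 0.15 (SE, adjusted p = 0.817).

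In upper glycolysis 7 of 9 members were higher, and in lower glycolysis 3 of 5. Hk2 differed by 0.69 ± 0.16 (SE, adjusted p = 0.00273), Pfkl and Pfkp, subunits of phosphofructokinase, by 0.66 ± 0.13 (SE, adjusted p = 0.000623) and 0.57 ± 0.14 (SE, adjusted p = 0.00527), and Tpi1, the triose phosphate isomerase, by 0.82 ± 0.14 (SE, adjusted p = 0.0002). The lower members Gapdh, Pgam1 and Eno1 were higher by 0.46, 0.61 and 0.45. Eno1 has a near-identical copy, Eno1b, with 1880 counts in kept cells against 18169, so reads may have been split between them. Pgk1 at 0.45 ± 0.17 (SE, adjusted p = 0.0557) and Pkm at 0.20 ± 0.15 (SE, adjusted p = 0.386) did not pass. Ldha was higher by 0.90 ± 0.13 (SE, adjusted p = 1.71e-05), whereas the exporter Slc16a3 did not pass at -0.57 ± 0.22 (SE, adjusted p = 0.0738). Pfkfb4 was the member called lower, at -0.85 ± 0.18 (SE, adjusted p = 0.00123). Neither glucose transporter passed, with Slc2a1 at 0.38 ± 0.19 (SE, adjusted p = 0.159) and Slc2a3 at -0.33 ± 0.17 (SE, adjusted p = 0.198).

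**Figure D2:**
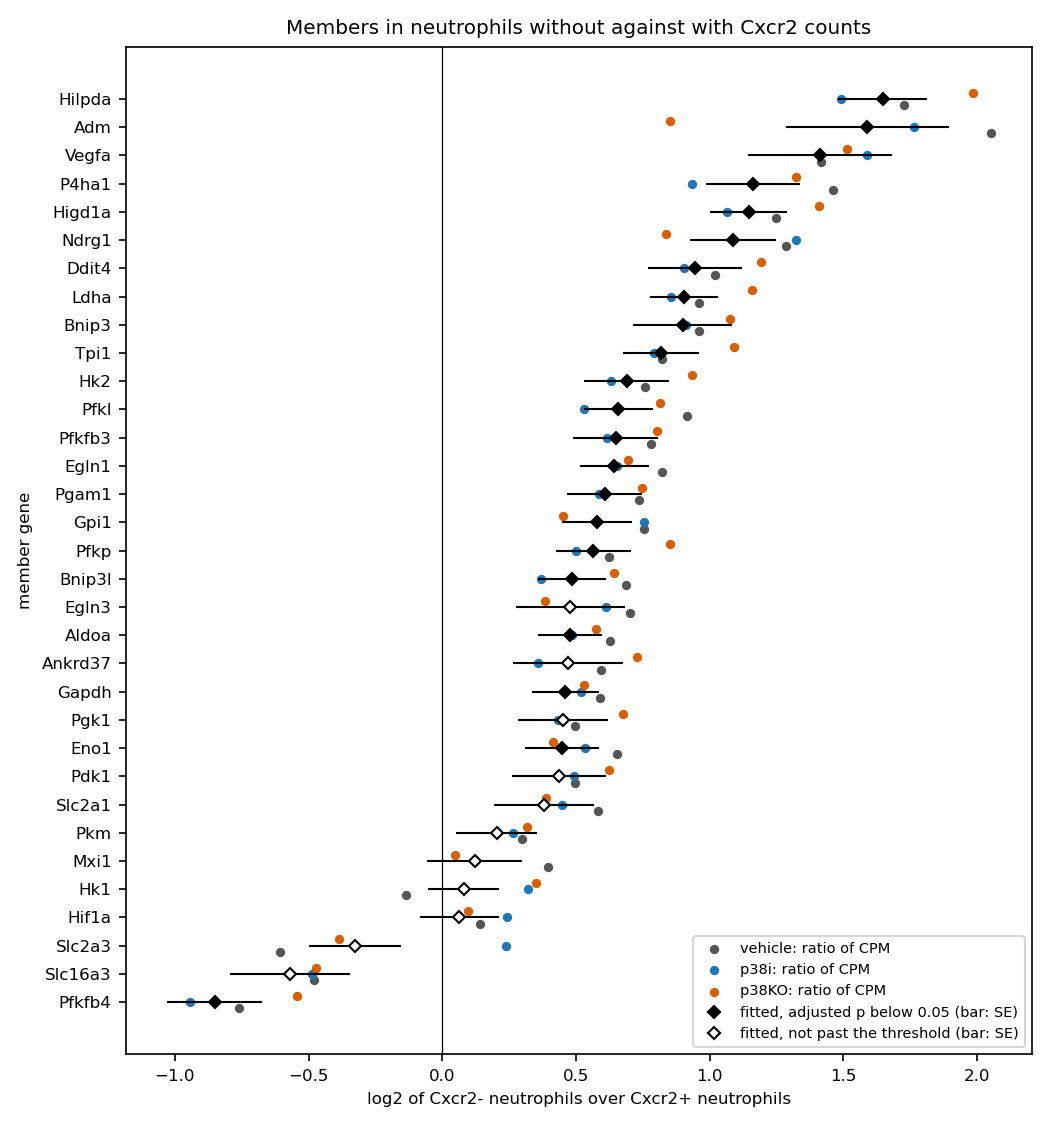
Difference of each member between Cxcr2- and Cxcr2+ neutrophils on a log2 scale (0 means equal levels), with circles for the ratio in each library and diamonds for the fitted value with its SE, filled where the adjusted p was below 0.05. The 3 circles of Hilpda lie between 1.49 and 1.99, those of Pfkfb4 and Slc16a3 below 0, and those of Hif1a near 0.

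Genes beyond the set were read from other lists, against 13.9% of all genes higher and 8.41% lower. Of 32 tested other hypoxia-induced genes 14 were higher in Cxcr2- neutrophils and 0 lower, led by Bhlhe41 (1.78), a transcriptional repressor, Ak4 (1.69), a mitochondrial adenylate kinase, and Tfrc (1.33), the transferrin receptor. Of 13 tested other glycolysis genes 3 were higher, namely the enolases Eno3 (2.79), Eno2 (1.56) and the copy Eno1b (0.64), and Slc2a6 was lower (-0.66). The pentose phosphate pathway, which draws glucose 6-phosphate away from glycolysis to make NADPH, moved the other way: 4 of 7 genes were lower and 0 higher, led by G6pdx (-1.35), its entry enzyme, Taldo1 (-0.98) and Pgd (-0.73). For the HIF pathway regulators 1 of 11 was higher, a share below that of all genes, namely Siah2 (1.59), a ubiquitin ligase for the Egln proteins.

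Absence of a Cxcr2 UMI depends on depth, and the median UMIs per cell were 2547, 2321 and 2196.5 in the Cxcr2+ gate and 2222, 1969 and 1951 in the Cxcr2- gate. With gates drawn after thinning every cell to 1500 UMIs, 19 members were higher and 1 lower, against 1188 and 750 of 11129 genes. All neutrophils thinned in this way were also divided by their Cxcr2 UMIs into classes of 0, 1, 2 and 3 or more, as a description with no test. Hilpda fell at every step, from 2607, 1319.9, 736 and 336 CPM in the vehicle library, 2108, 1182, 669 and 435 in the p38i library and 2315, 945, 578 and 252 in the p38KO library. Of the 32 members with at least 20 counts, 9 fell at every step in all 3 libraries, as did 2.05% of all genes, and 0 rose at every step, as did 2.6% of all genes. They were Pfkl, Aldoa, Tpi1, Pgam1, Eno1, Ldha, Bnip3, Higd1a and Hilpda. The last class was below the first in all 3 libraries for 26 of 32 members and for 24.4% of all genes. Pfkfb4 and Slc16a3 ran the other way, with Slc16a3 at 835, 1047, 1006 and 1049 CPM in the vehicle library.

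Hilpda was then used to order the same neutrophils, and the other members were read across the classes of 0, 1 to 2, 3 to 5 and 6 or more Hilpda UMIs. These classes held 966, 222, 181 and 214 cells of the vehicle library, 1112, 344, 251 and 221 of the p38i library and 824, 136, 89 and 108 of the p38KO library, so 13.5%, 11.5% and 9.33% of neutrophils had 6 or more. Of 31 other members with at least 20 counts, 17 rose at every step in all 3 libraries, against 3.36% of all genes, and 27 were higher in the last than in the first class in all 3, against 26.3% of all genes. Bnip3 went from 355, 907, 1123 and 1648 CPM in the vehicle library, 281, 727, 1137 and 1614 in the p38i library and 253, 588, 959 and 1605 in the p38KO library. Gapdh went from 1990.3, 3577, 4877 and 5452 CPM in the vehicle library and 1577, 2672, 3101 and 4438 in the p38KO library. Members of mitochondrial, angiogenic and glycolytic roles were among those that rose. Vegfa rose from 62.8, 120.1, 173 and 280.4 CPM in the vehicle library and P4ha1 from 92.5, 276, 365 and 651. Hif1a changed less, from 467, 559, 559.9 and 545 CPM in the vehicle library and 459.5, 691, 674 and 691 in the p38KO library. By contrast, Pfkfb4 and Slc16a3 were lower in the last class than in the first in all 3 libraries. The share of cells without Cxcr2 was 21.8%, 24.8% and 19.3% in the first class and 70.6%, 64.7% and 66.7% in the last, while the median UMIs before thinning were 2438, 2161.5 and 2090.5 in the first class and 2261.5, 2087 and 2103.5 in the last.

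**Figure D3:**
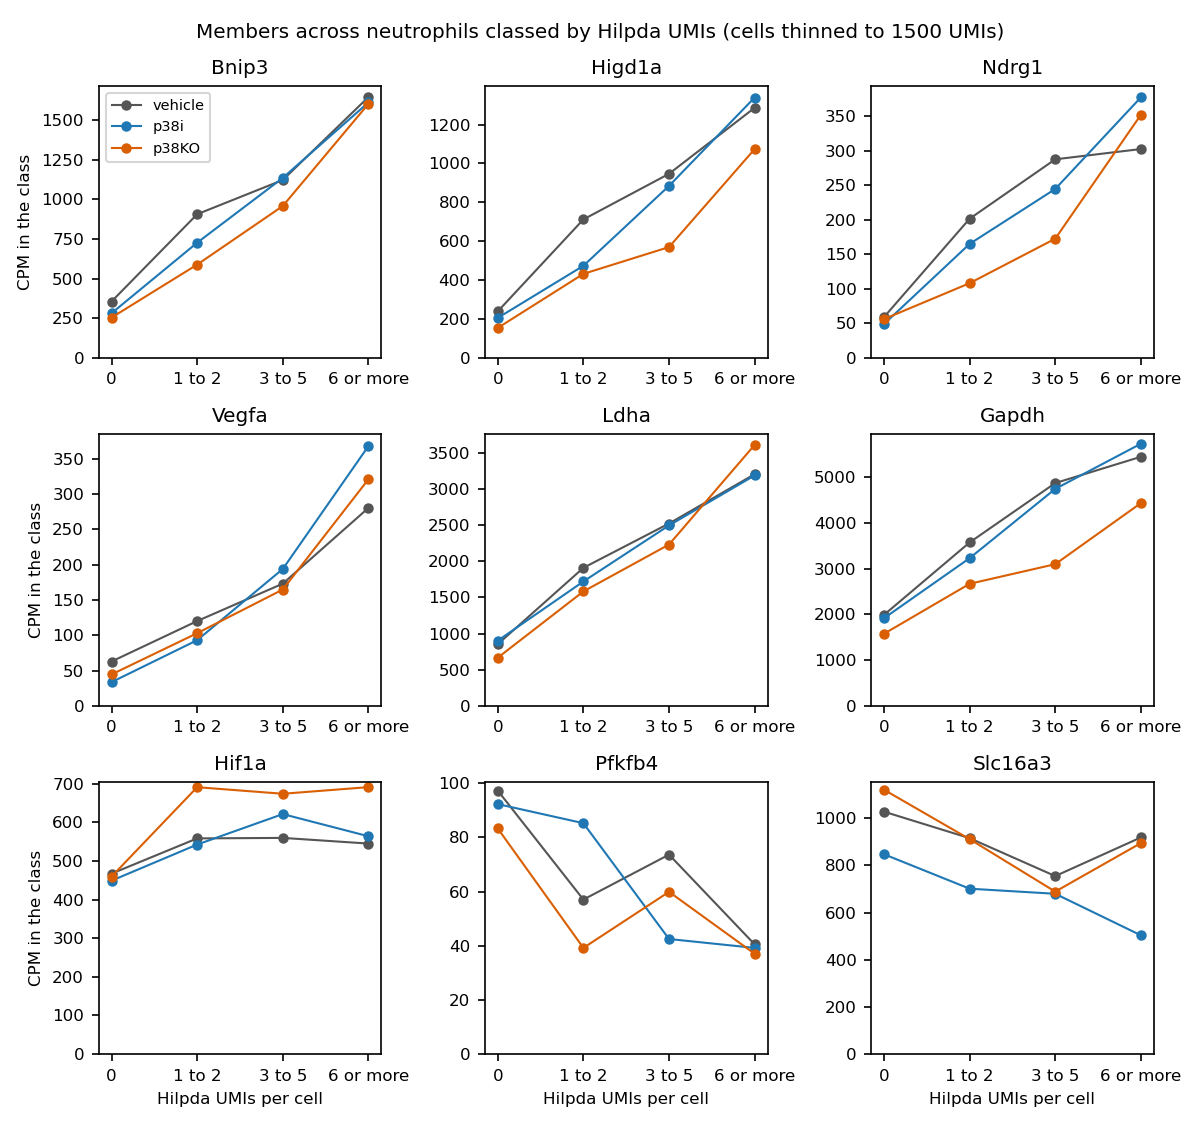
Level of 9 members (CPM, vertical axis from 0) in neutrophils divided by Hilpda UMIs per cell after thinning to 1500 UMIs (horizontal axis), with a line for each library. Bnip3, Higd1a, Ndrg1, Vegfa, Ldha and Gapdh rise from left to right in every library, Hif1a changes less, and Pfkfb4 and Slc16a3 end below their start.

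Macrophages held less of most members than monocytes. Of 33 members 25 were lower (14.5% of all genes were), 0 were higher (30.5% of all genes were) and 8 did not pass, with 24 to 29 lower and 0 higher across the 15 alternatives and 24 of the 25 lower in every one. DESeq2, among those alternatives, called 28 lower and 0 higher, against 1879 lower and 2085 higher of 18933 genes. The median member was -0.86 on the log2 scale against 0.22 for all genes (0.06 with total-count scaling), and 31 of 33 members had a ratio below 0 in all 3 libraries. The signs were not counted over all genes. Ddit4 differed by -2.56 ± 0.19 (SE, adjusted p = 6.35e-10), from 231, 123 and 223 CPM in monocytes to 23.1, 31.3 and 28.6 in macrophages. Egln3 differed by -2.31 ± 0.24 (SE, adjusted p = 7.96e-08), Vegfa by -2.12 ± 0.26 (SE, adjusted p = 9.79e-07) and Hilpda by -2.09 ± 0.17 (SE, adjusted p = 3.46e-09). The levels of these 4 genes, named for their large differences, did not overlap between both gates, and overlap was not counted over all genes. All 3 oxygen sensing members were lower, Hif1a by -1.504 ± 0.15 (SE, adjusted p = 5.75e-08) and Egln1 by -1.01 ± 0.12 (SE, adjusted p = 8.55e-07), as were 7 of 8 other hypoxia-induced members and 7 of 9 of upper glycolysis, among them Hk2 at -0.66 ± 0.16 (SE, adjusted p = 0.00227). In lower glycolysis 3 of 5 members were lower, with Eno1 at -0.86 ± 0.14 (SE, adjusted p = 3.24e-05), Pkm at -0.74 ± 0.15 (SE, adjusted p = 0.00042) and Pgk1 at -0.60 ± 0.16 (SE, adjusted p = 0.00498). Aldoa was lower at -0.38 ± 0.12 (SE, adjusted p = 0.0134), and Gapdh at -0.29 ± 0.13 (SE, adjusted p = 0.0684), Ldha at -0.20 ± 0.12 (SE, adjusted p = 0.19) and Gpi1 at -0.00 ± 0.13 (SE, adjusted p = 1) did not pass. Slc2a1 was lower at -1.49 ± 0.19 (SE, adjusted p = 1.69e-06). Outside the set, 23 of 27 respiratory chain genes and 5 of 7 pentose phosphate genes were higher in macrophages and 0 lower, and of 32 other hypoxia-induced genes 2 were higher and 15 lower.

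For the comparison of treatments, the level of a gate in 1 library was set against that in another. A member was called where the log2 ratio was at least 0.5 either way, its exact 95% interval left out 0 and both libraries together held at least 20 counts. With 1 library a group there is no test, and treatment cannot be told apart from library or from the tumors pooled. The p38i and p38KO ratios share the vehicle library, so the ratio of p38KO to p38i is given as well. Under alternative gates and cell filters, calls were counted for the members only. Such counts have no share of all genes beside them, so a change cannot be set against that of all genes.

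In the p38i library members were called in both directions in the myeloid gates. Ratios lay below 0 for 24 of 33 members in Cxcr2+ neutrophils, 26 in Cxcr2- neutrophils, 22 in monocytes and 13 in macrophages. These signs were not counted over all genes. Over the 7 gates 13 pairs of member and gate were called higher and 19 lower than in the vehicle library. Higher and lower calls were 1 and 1 of 33 members in Cxcr2+ neutrophils (6.67% and 2.93% of all genes), 1 and 4 in Cxcr2- neutrophils (10.1% and 4.28%), 1 and 2 in monocytes (4.67% and 2.85%) and 2 and 3 in macrophages (3.47% and 4.16%). In lymphoid gates and DCs they were 5 and 2 of 31 in T cells (6.46% and 2.15%), 3 and 2 of 31 in NK cells (4.18% and 5.46%) and 0 and 5 of 30 in DCs (5.38% and 3.91%). The median ratio of the members was -0.05, -0.20, -0.13 and 0.06 in the 4 myeloid gates in that order, against 0.08, 0.17, 0.04 and -0.01 for all genes.

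Ddit4 and Hk2 were lower in several gates of the p38i library. Ddit4 stood at 231, 123 and 223 CPM in monocytes, 192, 130.0 and 193 in Cxcr2- neutrophils and 171, 117 and 159 in T cells, so the p38i library was lowest in each of these gates. Its log2 ratio to vehicle was -0.91 (-1.10 to -0.73) in monocytes, -0.57 (-0.87 to -0.26) in Cxcr2- neutrophils, -0.55 (-0.75 to -0.35) in T cells and -0.70 (-1.34 to -0.08) in NK cells. The p38KO library showed no such fall in monocytes, where its ratio to vehicle was -0.05 (-0.27 to 0.16). Hk2 stood at 583, 411 and 479 CPM in Cxcr2+ and 986, 637 and 915 in Cxcr2- neutrophils, with ratios of -0.50 (-0.60 to -0.41) and -0.63 (-0.77 to -0.49) for p38i, and of -0.51 (-0.91 to -0.11) in T cells. With gates drawn after thinning, the ratio in Cxcr2+ neutrophils was -0.26 and no longer reached the size of a call, and that in Cxcr2- neutrophils was -0.78. In Cxcr2- neutrophils of the p38i library P4ha1 (-0.53 (-0.75 to -0.32)) and Ankrd37 (-0.67 (-1.05 to -0.29)) were lower too.

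Vegfa was lower in the mononuclear phagocytes of the p38i library, at 243.7 CPM in monocytes against 407 in vehicle with a ratio of -0.74 (-0.87 to -0.61), and with -0.60 (-0.92 to -0.29) in macrophages and -1.43 (-2.56 to -0.37) in DCs, where it turned to 0.81 with gates drawn after thinning. In monocytes the p38KO library stood near the vehicle library at 360.5 CPM, with a ratio of -0.17 (-0.34 to -0.01). In Cxcr2+ and Cxcr2- neutrophils the p38i ratios of Vegfa were -0.23 (-0.47 to 0.02) and -0.06 (-0.32 to 0.21), and neither was called. Hilpda was lower in macrophages (-0.59 (-0.79 to -0.39)) and NK cells (-0.73 (-1.26 to -0.21)). Adm was higher in Cxcr2+ neutrophils (0.93 (0.23 to 1.67)) and macrophages (1.19 (0.29 to 2.16)), on 57 against 25 and 37 against 15 counts. Slc2a3 was higher in monocytes and lower in macrophages, on at most 46 counts in a library.

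The higher calls of the p38i library lay mostly in T and NK cells. In T cells these were Egln3 (1.26 (0.69 to 1.85)), Bnip3 (0.98 (0.67 to 1.29)), Vegfa (0.81 (0.12 to 1.53)), Ndrg1 (0.69 (0.35 to 1.02)) and Ankrd37 (0.51 (0.04 to 1.00)), all of which have far higher levels in neutrophils or monocytes than in T cells. The 8 neutrophil markers summed to 692.3, 1515 and 530 CPM in T cells, so they were highest in the p38i library too, with 7 of 8 markers counted in each library. Without cells that held 5 or more neutrophil marker counts, 1 member was called higher and 3 lower in T cells, Bnip3 stayed at 0.61 and Vegfa turned to -0.68.

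**Figure D4:**
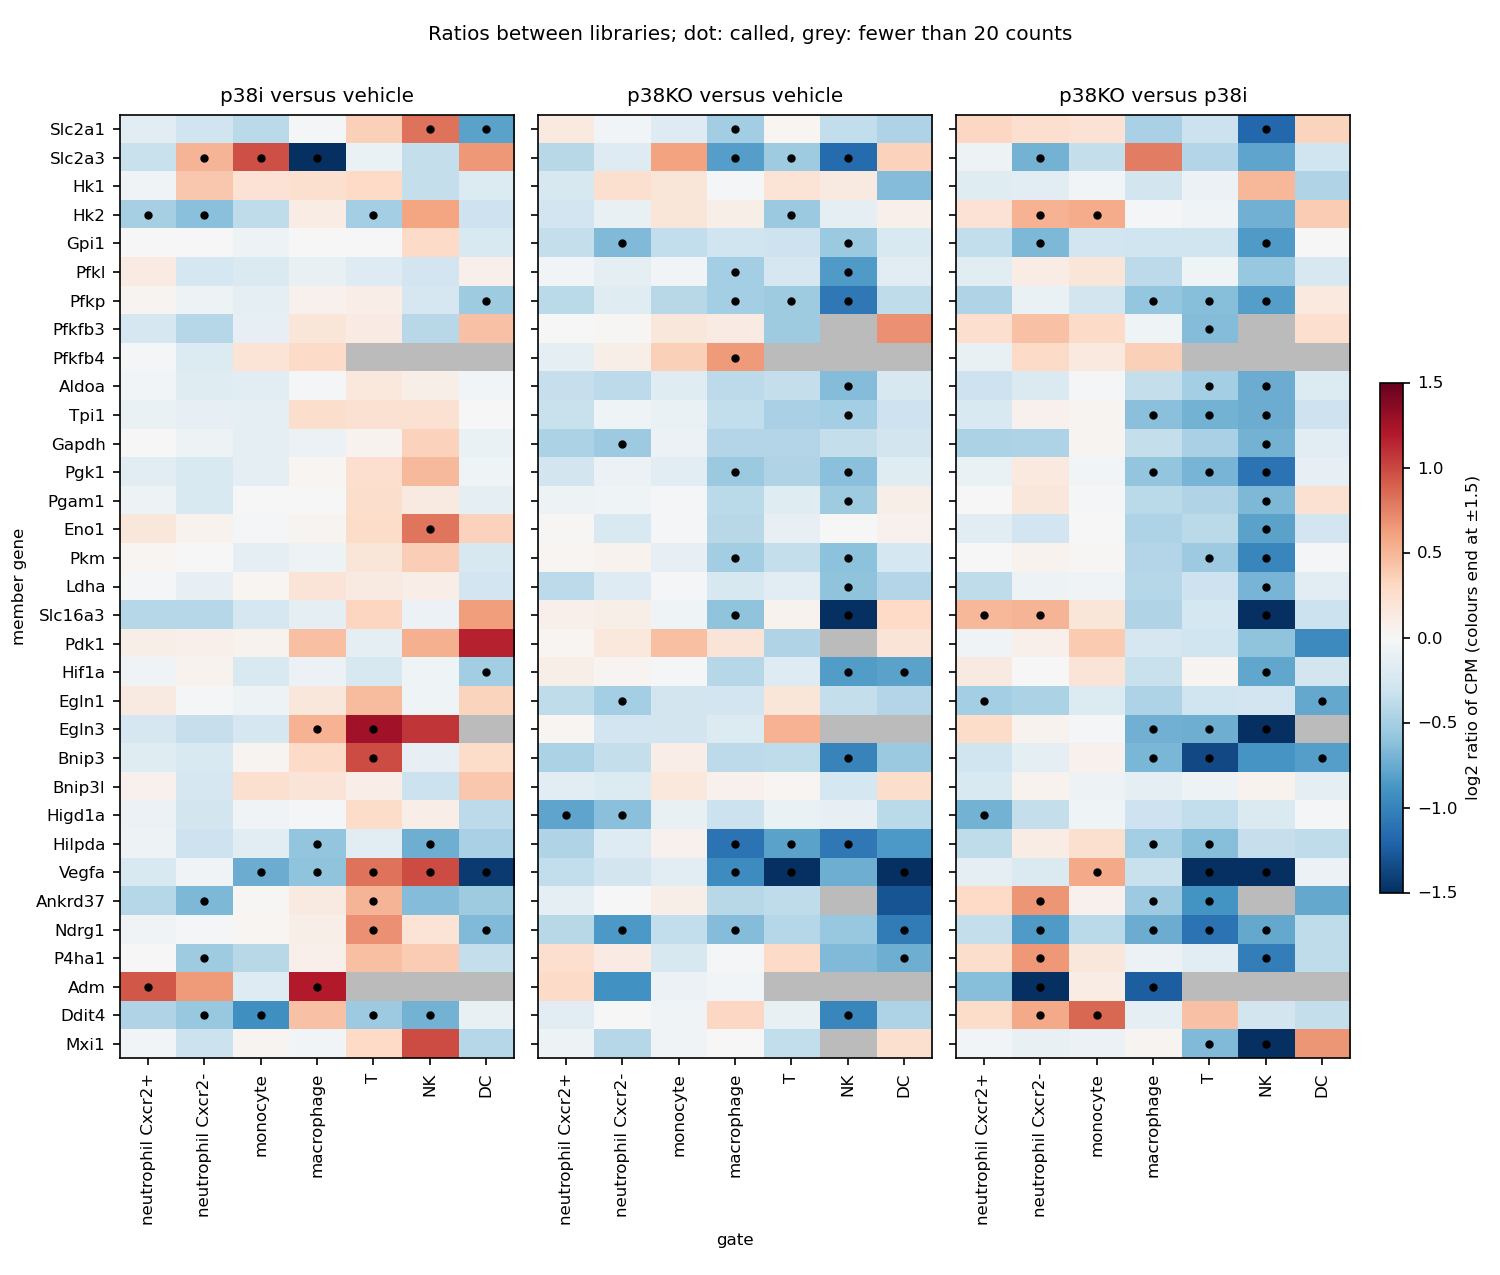
Log2 ratio of CPM of each member (rows) in each gate (columns) for p38i versus vehicle, p38KO versus vehicle and p38KO versus p38i, red for higher and blue for lower in the library named first, with colours that end at ±1.5. Dots mark called pairs and grey marks fewer than 20 counts; the panel of p38KO versus vehicle holds 40 blue dots and 1 red dot.

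In the p38KO library the calls were nearly all lower than vehicle, at 40 pairs of member and gate against 1 higher. Lower calls were 10 of 33 members in macrophages (3.55% of all genes), 5 of 33 in Cxcr2- neutrophils (3.74%), 1 of 33 in Cxcr2+ neutrophils (2.92%), 0 of 33 in monocytes (2.59%), 5 of 31 in T cells (3.25%), 15 of 26 in NK cells (6.84%) and 4 of 30 in DCs (5.1%). Pfkfb4 in macrophages was the 1 member called higher (7.89% of all genes there). Higher calls were 0 in Cxcr2+ neutrophils (8.67% of all genes), Cxcr2- neutrophils (9.67%), monocytes (6.49%), T cells (8.46%), NK cells (5.05%) and DCs (6.03%). The median ratio of the members was -0.39 in macrophages, -0.36 in T cells and -0.61 in NK cells, against 0.03, 0.12 and -0.02 for all genes, and -0.05 in monocytes against 0.04.

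In macrophages the lower members spanned transport, glycolysis and the hypoxia-induced group. Hilpda stood at 247, 164 and 115 CPM, so both treated libraries lay below vehicle, with a ratio of -1.11 (-1.28 to -0.93) for p38KO. Vegfa stood at 97.8, 64.4 and 51.0 CPM, with a ratio of -0.94 (-1.21 to -0.66). Both are induced by hypoxia in most cells. Ndrg1 (-0.65 (-0.83 to -0.48)), the lactate exporter Slc16a3 (-0.60 (-0.79 to -0.41)), Pgk1 (-0.56 (-0.64 to -0.48)), Slc2a1 (-0.52 (-0.72 to -0.33)) and Pkm (-0.52 (-0.59 to -0.45)) were also lower, as were Pfkp, Pfkl and Slc2a3. Gapdh (-0.44 (-0.48 to -0.40)), Pgam1 (-0.41 (-0.49 to -0.32)) and Aldoa (-0.39 (-0.46 to -0.32)) had intervals below 0 but did not reach the size of a call. Pfkfb4 was higher (0.64 (0.11 to 1.21)).

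The macrophage gate of the p38KO library held 343 cells against 117 and 136, and its 7 macrophage markers summed to 31885 CPM against 22067 and 25266.5. Mast cell and basophil markers moved with it (0.983, 0 and 193.3 CPM, with 2, 0 and 6 of 6 markers counted). Without cells holding such a marker, 5 members were called lower in macrophages, with Hilpda at -1.02, Vegfa at -0.77, Slc16a3 at -0.60, Slc2a1 at -0.53 and Ndrg1 at -0.53. Neutrophil markers summed to 927.3, 827.9 and 439.1 CPM in macrophages, so they were lowest in the p38KO library. Without cells holding 5 or more counts of them 13 members were called lower, and Hilpda stood at -1.62.

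**Figure D5:**
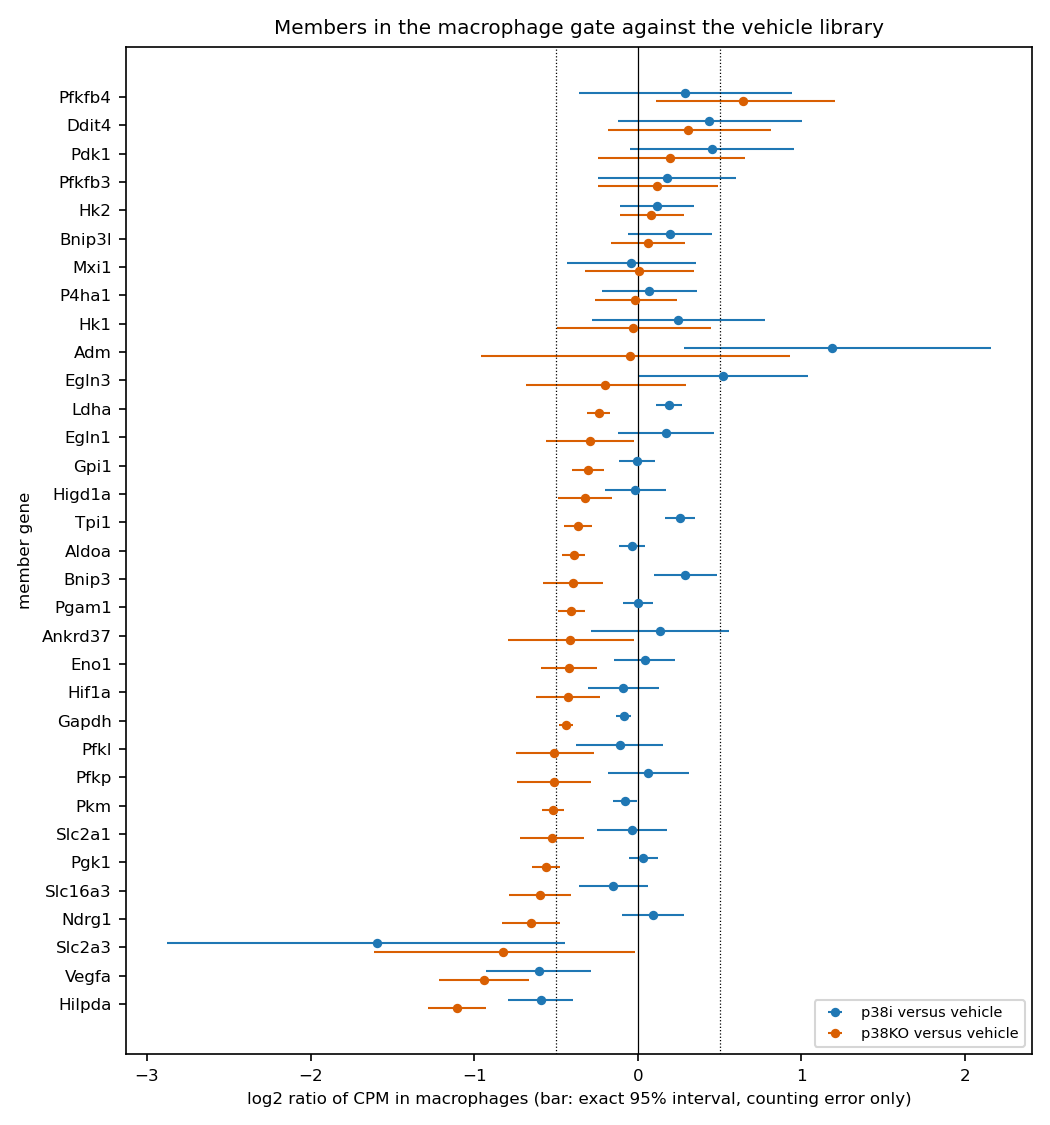
Log2 ratio of each member in macrophages of the p38i and p38KO libraries to the vehicle library, with exact 95% intervals that cover counting error only and dotted lines at the size of a call (0.5 either way). The p38KO points of Hilpda (-1.11) and Vegfa (-0.94) lie farthest to the left among members with narrow intervals, and most p38i points lie near 0.

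In neutrophils of the p38KO library 1 of 33 members was called lower in Cxcr2+ cells (2.92% of all genes) and 5 of 33 in Cxcr2- cells (3.74%). None was called higher in either gate (8.67% and 9.67% of all genes). Higd1a stood at 381, 359 and 220.3 CPM in Cxcr2+ and 906, 751 and 586 in Cxcr2- cells, lowest in the p38KO library in both, with ratios of -0.79 (-0.94 to -0.64) and -0.63 (-0.81 to -0.45). In Cxcr2- neutrophils Ndrg1 (-0.86 (-1.24 to -0.50)), Gpi1 (-0.66 (-0.89 to -0.44)), Gapdh (-0.54 (-0.62 to -0.46)) and Egln1 (-0.51 (-0.94 to -0.09)) were lower too. Hilpda in these cells, at -0.19 (-0.28 to -0.11), and Ldha, at -0.20 (-0.30 to -0.10), were not called. In monocytes no member was called with raw gates, at 0 higher and 0 lower, but with gates drawn after thinning 8 were lower and 1 higher. Calls after thinning were not counted over all genes.

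NK cells held the largest count of lower members, on few counts. Slc16a3 had 48 counts in the vehicle and 13 in the p38KO library, a ratio of -2.13 (-3.13 to -1.22). Aldoa (-0.65 (-0.85 to -0.45)), Ldha (-0.60 (-0.80 to -0.40)) and Pkm (-0.62 (-0.84 to -0.39)) rest on 289 to 480 counts a library, and Hif1a was lower at -0.84 (-1.33 to -0.36). Mast cell and basophil markers summed to 41.5, 53.2 and 1904 CPM in NK cells. Without cells holding such a marker 11 of 25 members were lower, with Slc16a3 at -1.99, Ldha at -0.66 and Hif1a at -0.77. In T cells Hilpda was lower at -0.80 (-1.12 to -0.49), from 99.0, 88.1 and 56.7 CPM, and Pfkp at -0.54 (-0.75 to -0.32). In T cells 3 members were called lower without cells holding mast cell or basophil markers, which stood at 308.6 CPM in the p38KO library and 0.695 in vehicle.

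Set directly against the p38i library, the p38KO library held lower members in macrophages, T cells and NK cells, and members called both ways in the neutrophil gates at shares near or below those of all genes. Over the gates 48 pairs were lower and 9 higher. Lower calls were 9 of 33 in macrophages (2.81% of all genes), 13 of 31 in T cells (5.05%) and 18 of 29 in NK cells (5.65%), with medians of -0.40, -0.44 and -0.77 against 0.05, 0.03 and 0.01 for all genes. Neutrophil markers were lower in the p38KO library too, at 530 against 1515 CPM in T cells and 439.1 against 827.9 in macrophages, and mast cell and basophil markers were higher, at 1904 against 53.2 CPM in NK cells. Without cells holding 5 or more neutrophil marker counts 17 of 32 members were lower in macrophages, 6 of 30 in T cells and 11 of 24 in NK cells, and Hilpda in T cells turned to 0.0051. Without cells holding a mast cell or basophil marker the lower calls were 9 of 33, 14 of 31 and 16 of 29. Higher calls were 0 in macrophages (7.92% of all genes), T cells (4.86%) and NK cells (5.05%). In DCs 0 of 30 were higher (4.56% of all genes) and 2 lower (5.28%), and in Cxcr2+ neutrophils 1 of 33 was higher (10.5%) and 2 lower (7.05%). In macrophages Bnip3 (-0.69 (-0.85 to -0.52)), Ndrg1 (-0.75 (-0.92 to -0.58)), Tpi1 (-0.62 (-0.70 to -0.55)) and Pgk1 (-0.59 (-0.68 to -0.51)) were lower. In Cxcr2- neutrophils 5 members were higher and 4 lower of 33 (10.1% and 9.69% of all genes). The higher ones were P4ha1 (0.65 (0.41 to 0.90)), Ankrd37 (0.66 (0.21 to 1.11)), Ddit4 (0.57 (0.20 to 0.93)), Hk2 (0.52 (0.36 to 0.68)) and Slc16a3 (0.52 (0.34 to 0.69)), and among the lower ones were Gpi1 (-0.67 (-0.90 to -0.45)) and Ndrg1 (-0.85 (-1.22 to -0.49)). In monocytes 3 were higher (5.82% of all genes) and 0 lower (3.21%), namely Ddit4 (0.86 (0.64 to 1.08)), Vegfa (0.57 (0.40 to 0.73)) and Hk2 (0.56 (0.39 to 0.73)).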

How the data were processed

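Single-cell RNA sequencing was available for 3 libraries, 1 per group. The authors had aligned reads to mm10 with Cell Ranger (the matrix header names 6.0.0) and deposited filtered matrices of raw counts, which are UMIs per gene and cell with no normalization. A cell had to hold 1500 or more UMIs and 300 or more genes, with a mitochondrial share of no more than 20%. Cells were gated on raw counts and summed per gate and library, and CPM were computed from the sums. No doublet caller was run, but most gating genes of the other gates had to be at 0. Monocyte genes were allowed in T cells, NK cells, DCs and macrophages, and other markers of the remaining cell types were not required to be absent. The members and lists were chosen with earlier results of these data known. All 33 members could be named, and of each other list up to 3 genes with the largest called difference in a comparison. Eno1b was named as the copy of Eno1.

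Libraries were compared by log2 ratios of CPM with exact conditional binomial 95% intervals, 0.5 standing in for a count of 0. Gates were compared with edgeR 4.0.16 (R 4.3.3, quasi-likelihood, terms for gate and library) and Benjamini-Hochberg adjustment at 0.05. TMM scaling factors were taken from the 3103 genes with at least 10 counts in every sum, with factors from all genes kept as an alternative. This choice and the fits without cells holding mast cell, basophil or neutrophil markers were made after seeing the data. Other alternatives were DESeq2 1.42.0, other filters, thinning to 1500 UMIs and leaving out each library. The intervals cover counting error only. The second entry of Aldoa had 0 counts.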

Additional observations from a re-analysis of the deposited data

Results flagged for a closer look

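Some members were called in opposite directions in different gates of the same pair of libraries. Each value is a log2 ratio from 1 library a group, and the difference between gates was not tested. In the p38i library against vehicle, Vegfa was higher in T cells (0.81) and NK cells (0.98) and lower in monocytes (-0.74), macrophages (-0.60) and DCs (-1.43). The summed neutrophil markers in T cells were highest in the p38i library as well, at 1515 CPM against 692.3 in vehicle. Ndrg1 was higher in T cells (0.69) and lower in DCs (-0.66), and Ankrd37 was higher in T cells (0.51) and lower in Cxcr2- neutrophils (-0.67). Slc2a1 was higher in NK cells (0.81) and lower in DCs (-0.80). Slc2a3 was higher in Cxcr2- neutrophils (0.51) and monocytes (0.96) and lower in macrophages (-1.59). Several of these signs turned under an alternative: Vegfa after thinning in T cells (-0.77), NK cells (-0.22) and DCs (0.81), Ndrg1 without neutrophil marker cells in T cells (-0.15) and DCs (0.53), and Slc2a3 in monocytes with loose gates (-0.28).

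In the p38KO library against the p38i library, Slc16a3 was higher in Cxcr2+ (0.50) and Cxcr2- neutrophils (0.52) and lower in NK cells (-2.04). P4ha1 was higher in Cxcr2- neutrophils (0.65) and lower in NK cells (-1.04). Vegfa was higher in monocytes (0.57) and lower in T cells (-3.63) and NK cells (-1.70). Ankrd37 was higher in Cxcr2- neutrophils (0.66) and lower in macrophages (-0.55) and T cells (-0.90). Mast cell and basophil markers in NK cells stood at 1904 CPM in the p38KO library and 53.2 in the p38i library, and their part in these differences was not tested.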

How the results depend on the processing

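Over the alternatives, the calls between gates kept their direction and side of the threshold in 1388 cases, fell short of it in 30, newly passed it in 53 and changed sign in 14. Ratios between libraries stayed within their interval in 1284 cases, moved beyond it in 125 and changed sign in 21. The causes of these changes were not tested. Part of the 1284 could not have moved, so their number does not measure stability. A higher minimum of counts or a larger size limit leaves every ratio as it was. Loose gates changed only monocytes and macrophages among the gates, and the filter on neutrophil markers left both neutrophil gates unchanged. Of 21 members higher in Cxcr2- neutrophils, 12 were higher with TMM factors from all genes and 10 to 22 when 1 library was left out, with 10 without vehicle. The count lower was 1, and 1 to 2 without 1 library, 2 with no filter on low counts, 3 with only the gates compared, 3 with TMM from all genes and 2 without cells holding 5 or more neutrophil marker counts. TMM from all genes also moved the split over all genes in Cxcr2- against Cxcr2+ neutrophils from 1526 higher and 923 lower to 925 and 1600, in macrophages from 3345 and 1595 to 2146 and 2366, and in neutrophils against T and NK cells from 2699 and 6327 to 3819 and 4854.

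For p38i against vehicle, the 13 higher pairs became 6 after thinning, 6 without the deepest 5% of cells, 8 with at least 100 counts, 2 with a size limit of 1 and 4 without cells holding neutrophil markers, and the 19 lower pairs became 2 with a size limit of 1. For p38KO against vehicle, the 1 higher pair became 4 after thinning, 0 with loose gates, 7 with means over cells, 0 with a size limit of 1 and 2 without mast cell or basophil marker cells, and the 40 lower became 8 with a size limit of 1. For p38KO against p38i, the 9 higher became 5 with no cell filter and 0 with a size limit of 1, and the 48 lower became 12 with a size limit of 1.

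Signs changed as follows. For p38i against vehicle these were Slc2a3 in monocytes (-0.28) and Egln3 in macrophages (-0.17) with loose gates, Ndrg1 (-0.15) and Vegfa (-0.68) in T cells and Ndrg1 in DCs (0.53) without neutrophil marker cells, and, after thinning, Vegfa in T cells (-0.77), NK cells (-0.22) and DCs (0.81) and Pfkp (0.085) and Ndrg1 (0.11) in DCs. Vegfa in NK cells also turned with means over cells (-0.19) and without the deepest cells (-0.24). For p38KO against vehicle these were Ndrg1 in DCs without neutrophil marker cells (0.22) and Hk2 in T cells after thinning (0.15). For p38KO against p38i these were Hilpda in T cells (0.0051), Egln3 (0.060) and Mxi1 (0.060) in NK cells without neutrophil marker cells, Egln3 in T cells (0.077), Ndrg1 (0.084) and Mxi1 (0.014) in NK cells after thinning, and Vegfa in NK cells with means over cells (0.0050). Between gates, none of which passed the test, these were, in neutrophils, Mxi1 without vehicle (-0.044, with 0.20 as the highest without 1 library), Hk1 without p38KO (-0.0027, with 0.21 as the highest), after thinning (-0.12), with no cell filter (-0.010) and with TMM from all genes (-0.16), and with the last also Pkm (-0.043), Hif1a (-0.18) and Mxi1 (-0.12). In macrophages against monocytes they were Slc2a3 without p38i (0.49, with -0.73 as the lowest without 1 library) and without neutrophil marker cells (0.10), Gpi1 after thinning (0.0098), without neutrophil marker cells (0.0087) and without the deepest cells (0.022), and Pfkfb4 without neutrophil marker cells (0.087).

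No paired analysis was possible because each treatment group was 1 library and the labels give no replicate numbers. Gates were paired within libraries by the library term, and without it 17 members were higher in Cxcr2- neutrophils, as were 1409 of 10970 genes. Leaving out a library was possible only for gates. Depth limited NK cells and DCs most, with 41 to 111 cells a library.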

Other observations

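Among genes listed beside the members, Dusp1, a phosphatase that inactivates p38 and related kinases and is induced by many stresses, was lower in the p38i library than in vehicle in each of the 6 gates with at least 100 counts. Its log2 ratio was -1.71 (-1.77 to -1.65) in Cxcr2+ neutrophils, -1.38 (-1.49 to -1.27) in Cxcr2- neutrophils, -1.59 (-1.75 to -1.44) in monocytes and -2.59 (-3.09 to -2.13) in macrophages. In the p38KO library the ratio of Dusp1 was -0.72 in Cxcr2+ neutrophils, -0.17 in Cxcr2- neutrophils, -1.70 in monocytes and -2.20 in macrophages. Each value rests on 1 library a group.

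In Cxcr2- neutrophils of the p38i library 8 of 27 nuclear-encoded respiratory chain genes were called higher than in vehicle (10.1% of all genes were), 0 lower, and all 27 ratios were above 0, with a median of 0.49 against 0.17 for all genes. The largest belonged to subunits of ATP synthase and cytochrome oxidase, with Atp5a1 at 1.05 (0.54 to 1.58), Atp5o at 0.81 (0.27 to 1.36) and Cox6a1 at 0.69 (0.36 to 1.02). Against the p38i library, 14 of 27 of these genes were lower in the p38KO library (9.69% of all genes were), with a median of -0.57 against -0.08.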
